A study of Drosophila melanogaster with 72 samples.

Results

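Expression of 8 muscle calcium handling genes was followed across strains, ages and times of day in Drosophila melanogaster muscle. The genes were chosen by name, for their place in calcium handling, with earlier results of these data known. They are the pump gene Ca-P60A, the buffer genes Scp1 and Scp2, the sensor gene Cam, the exchanger gene Calx, and the calcium entry genes Ca-alpha1D, Stim and olf186-F. All 8 were found among the 15682 gene rows of the deposited count tables, and all 8 passed the filter on low counts in each experiment.

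In muscle, calcium enters the cytosol from the sarcoplasmic reticulum and from outside the fibre, binds the troponin of the thin filament and so starts contraction. Relaxation follows when pumps return calcium to the reticulum or exchangers move it out of the fibre, while soluble EF-hand proteins buffer it in between. When the store runs low, a sensor in its membrane opens channels of the plasma membrane that refill it.

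RNA sequencing of skeletal muscle gave 72 libraries in 3 experiments, which were tested apart. The age experiment compared the parental strain B3 with O1 and O3, both described as showing delayed aging, at 1 and 6 weeks of age with 3 libraries per group. A day course sampled the same 3 strains at ZT0, ZT6, ZT12 and ZT18 (zeitgeber time, hours of the lighting schedule) in 31 libraries, with 3 per group except 2 for B3 and O3 at ZT6 and for B3 at ZT18, and 1 for O1 at ZT18. A transgenic day course set mhc, a control that carries the Mhc-Gal4 transgene, against mhc>timeless, in which that muscle driver expresses the clock gene timeless, in 23 libraries with 3 per group except 2 for mhc>timeless at ZT0. The labels name no harvest hour for the age libraries and no age for the day-course libraries, and they name neither the sex of the flies, the muscles taken nor the number of flies in a library. They do not say whether libraries of a group came from separate flies, so the p-values measure only the spread between these libraries, which may be technical.

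Each age library held 15.5 to 35.7 M (mega) counts, each library of the strain day course 39.5 to 89.96 M and each transgenic library 53.1 to 170.0 M. Of 25 muscle markers, all 25 exceeded 1 CPM (counts-per-million) in every library. Some libraries stood apart. At 1 week, libraries 2 and 3 of O1 and libraries 1 and 2 of O3 had 11, 11, 13 and 13 of 14 testis markers above 1 CPM, against 1 in the remaining library of each strain, where 4 markers were at 0. The B3 libraries of that age had 9, 7 and 2. At 6 weeks the 3 O1 libraries had 11, 11 and 8, against 1 to 2 in B3 and 1 to 3 in O3. The values below without testis-rich libraries leave out the 4 named 1-week libraries only, so they keep 1 library of O1 or O3 at 1 week, whose spread is taken from the other groups, and in O1 they keep the 6-week libraries that carry these markers. In the transgenic experiment, library 3 of mhc at ZT12 and library 3 of mhc>timeless at ZT18 summed to 4723 and 6052 CPM over 11 photoreceptor markers, against 64.7 to 88.4 CPM in the other 21. Depth also followed the groups there, with 53.1 to 71.9 M counts in mhc at ZT0 to ZT12, 148 to 168 M in mhc at ZT18 and 124 to 170.0 M in mhc>timeless. Whether these features bear on the values below was not tested except where values without those libraries are given.

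The members spanned a wide range of levels. Per kilobase of annotated exon, Scp1 stood highest in all 6 age groups, at 2631 to 3209 CPM per kb at 1 week. Scp1 and Scp2 encode sarcoplasmic calcium-binding proteins, EF-hand buffers of invertebrate muscle, and they differed greatly in level, with Scp2 at 49.7 to 70.9 CPM per kb at 1 week. Second at 1 week came Ca-P60A, which encodes the sarco/endoplasmic reticulum calcium ATPase (SERCA), at 1309 to 1555 CPM per kb. Cam, the gene of the calcium sensor calmodulin, followed at 152 to 163 CPM per kb. Stim, Ca-alpha1D, Calx and olf186-F lay between 14.4 and 54.0 CPM per kb at 1 week. At 6 weeks in B3 the order at the top changed, with Cam at 161 and Ca-P60A at 154 CPM per kb. These exon lengths come from a newer annotation (BDGP6) than the genome build of the counts, so the values per kb order the genes only roughly.

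With age, 6 of the 8 genes were called in each strain, a call being an adjusted p under 0.05 in edgeR's quasi-likelihood test, from which every adjusted p here comes unless another tool is named. In B3, Ca-P60A, Scp1, Scp2, Calx and olf186-F were lower at 6 weeks and Stim was higher. In O1 and in O3, Ca-P60A, Scp1, Scp2, Calx, Ca-alpha1D and olf186-F were lower and none was higher. The 5 lower genes in B3 stand beside 20% of all 12445 genes tested that were called lower and the 1 higher beside 21.8% called higher. The 6 lower genes stand beside 12.4% called lower in O1 and 27.4% in O3. The median log2 change of the 8 genes was -0.68 in B3, -0.50 in O1 and -0.69 in O3, against -0.028, -0.026 and -0.0019 over all genes tested.

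**Figure D1:**
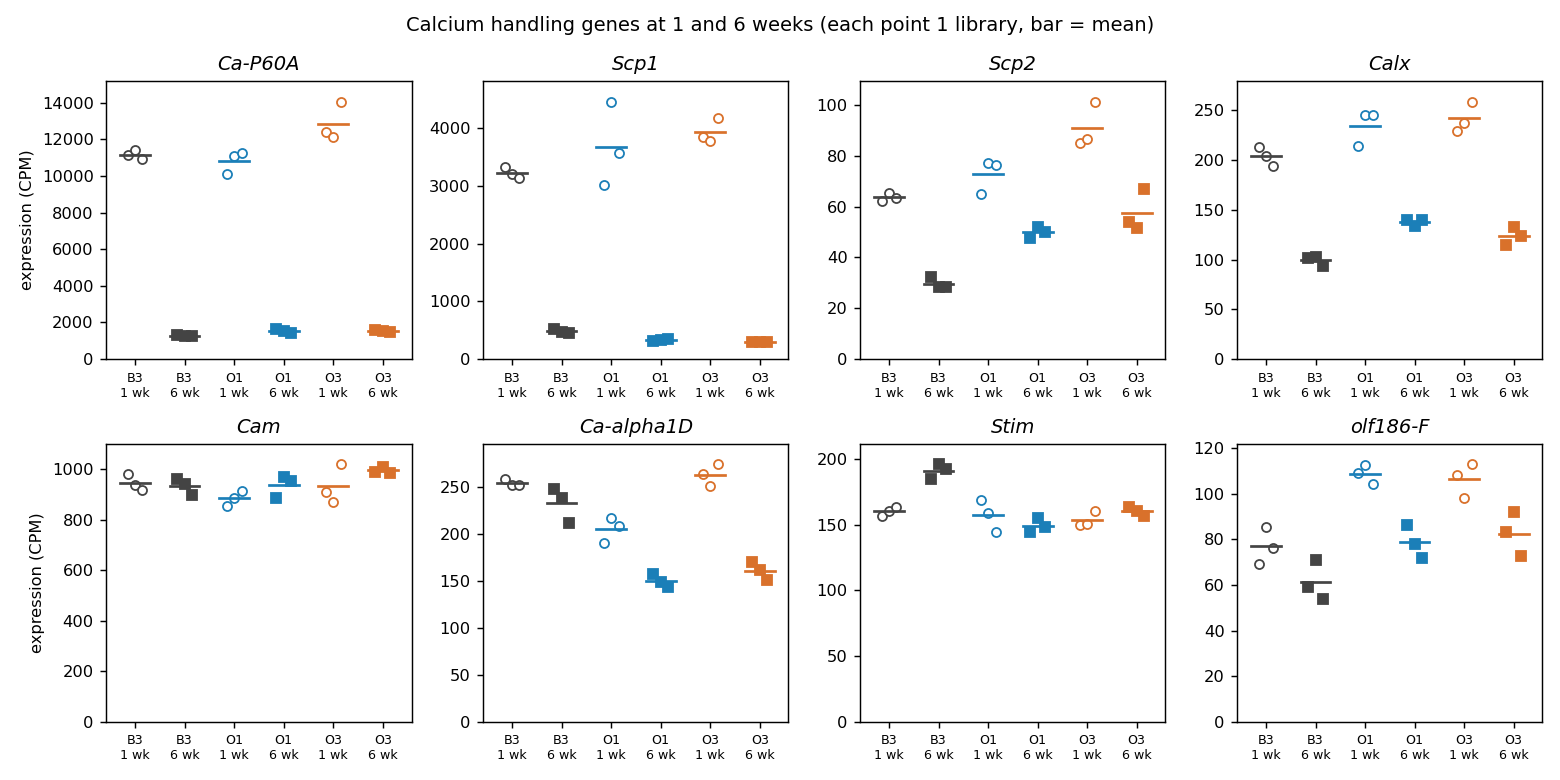
Expression in CPM (vertical axes, from 0) of the 8 genes in the 18 age libraries, by strain and age. Each point is 1 library and each bar the group mean; Ca-P60A falls from at least 10089 CPM in every 1-week library to at most 1653 CPM in every 6-week library.

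Ca-P60A, the pump gene, had the smallest p-value of all genes tested in each strain. Ca-P60A read 11171, 11393 and 10929 CPM in the 1-week libraries of B3 and 1320.5, 1253 and 1236 CPM in the 6-week ones. In O1 it read 10089, 11101 and 11255 CPM at 1 week and 1653, 1506 and 1441 CPM at 6 weeks, and in O3 12381, 12112 and 14062 and 1612, 1512 and 1452 CPM. All 9 young libraries were above all 9 old ones, with no overlap and a gap of several fold. The fall was 8.79-fold in B3, 7.05-fold in O1 and 8.43-fold in O3, with log2 changes of -3.14 ± 0.0759 (adjusted p = 3.98e-12), -2.82 ± 0.0749 (adjusted p = 2.41e-11) and -3.07 ± 0.0757 (adjusted p = 8.39e-12), each ± SE. Its rank by p-value was 1 among the 12445 genes in each of the 3 strains. In order of mean level, O3 at 1 week was apart from B3 and O1 at 1 week, which overlapped, and O1 and O3 at 6 weeks overlapped and were apart from B3 at 6 weeks. The exons of Ca-P60A share 1325 bases with CG2812 on the opposite strand, and CG2812 read only 2.06 to 4.77 CPM in the age libraries.

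The muscle marker genes also fell with age, and by less than Ca-P60A. Their summed level was 54180 to 57973 CPM in B3 at 1 week and 34928 to 38658 CPM at 6 weeks, 51217 to 56907 and 25886 to 27938 CPM in O1, and 56420 to 65266 and 22533 to 24882 CPM in O3. On the log2 scale the furthest falls of single markers were -2.73 in B3 (fln), -2.78 in O1 (Mf) and -2.96 in O3 (TpnC4). Those in O1 and O3 came close to the change of Ca-P60A. In B3, Act57B (1.58) and Act88F (0.98) rose. Of the 25 markers, 18, 22 and 22 were called lower in B3, O1 and O3 and 2, 1 and 0 higher, with median log2 changes of -0.60, -0.77 and -1.24. Per 1000 counts of these markers, Ca-P60A had 200.2 ± 9.08 counts at 1 week and 34.0 ± 1.42 at 6 weeks in B3 (SD, n = 3 each). In O1 the same ratio went from 199 ± 5.18 to 56.7 ± 2.16, and in O3 from 212 ± 5.97 to 63.7 ± 1.56. The ratio thus stayed several fold lower in old libraries of each strain, and the lowest young library, at 193, lay above the highest old one, at 64.8. Of the 12 neuron markers, all above 1 CPM in every library, 9, 4 and 9 were called lower, and their sum was 1732 to 1964 CPM at 1 week and 1109 to 1263 CPM at 6 weeks in B3. The 2 ranges were 1366 to 1787 and 1255 to 1337 CPM in O1, and 1961 to 2033 and 1266 to 1357 CPM in O3. Other tissues moved too. In B3, 7 of 13 gut markers were called lower (1 higher, median -1.41). In O3, all 13 testis markers tested were lower (median -5.87), 5 of 7 fat body markers were higher (median 1.11) and 4 of 9 hemocyte markers were higher (median 0.41). Of 5 ovary and yolk markers, 4, 3 and 2 were called higher in B3, O1 and O3, with sums of at most 171 CPM in any age library. Reads outside annotated features took 20.8 to 27.9% at 1 week and 13.0 to 17.6% at 6 weeks. The part of these shifts in the results was not tested, and in whole tissue fewer cells of a type and less RNA per cell cannot be told apart.

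Scp1 fell about as far as the pump, and further in the delayed-aging strains. It read 3321, 3216 and 3140.2 CPM at 1 week and 525, 463 and 448 CPM at 6 weeks in B3. In O1 the libraries read 3014, 4463 and 3577 CPM and then 314, 333 and 347 CPM, and in O3 3845, 3777 and 4179 CPM and then 298, 292 and 289 CPM. Every young library was far above every old one, and at 6 weeks the strains did not overlap, with B3 highest and O3 lowest. Log2 changes were -2.75 ± 0.113 (adjusted p = 3.16e-10) in B3, -3.48 ± 0.117 (adjusted p = 1.4e-10) in O1 and -3.75 ± 0.119 (adjusted p = 8.94e-11) in O3, or 6.74-, 11.1- and 13.4-fold lower. Per 1000 muscle marker counts, Scp1 went from 57.8 ± 1.37 to 12.8 ± 0.77 in B3, from 67.5 ± 10 to 12.3 ± 1.09 in O1 and from 64.9 ± 1.82 to 12.3 ± 0.508 in O3 (SD, n = 3 each).

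Scp2, the second buffer gene, fell less and most in B3. Its libraries read 62.3, 65.5 and 63.3 CPM and then 32.4, 28.3 and 28.2 CPM in B3, 64.9, 77.1 and 76.2 and then 47.5, 52.2 and 49.9 CPM in O1, and 84.9, 86.6 and 101 and then 53.8, 51.5 and 66.9 CPM in O3. Within each strain the ages did not overlap, and all B3 libraries at 6 weeks lay below every other library. The log2 changes were -1.10 ± 0.103 (adjusted p = 9.7e-07), -0.54 ± 0.101 (adjusted p = 0.00124) and -0.66 ± 0.101 (adjusted p = 0.000162). Against the muscle markers the direction split by strain, since per 1000 marker counts Scp2 went from 1.14 ± 0.0667 to 0.793 ± 0.0519 in B3 but from 1.34 ± 0.0622 to 1.85 ± 0.126 in O1 and from 1.5 ± 0.0813 to 2.41 ± 0.481 in O3. Without the testis-rich libraries of O1 the change there was -0.38 and was not called (adjusted p = 0.0785), on 1 library at 1 week.

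Calx encodes the sodium/calcium exchanger of the plasma membrane. It read 213, 204 and 195 CPM and then 102, 103 and 93.3 CPM in B3, 214, 245 and 245 and then 139.7, 134 and 140.0 CPM in O1, and 229, 238 and 259 and then 114, 133 and 123 CPM in O3. Young and old libraries did not overlap, and at 6 weeks the means of O1, O3 and B3 stood in that order with no overlap of neighbours. The log2 changes of Calx were -1.04 ± 0.0704 (adjusted p = 3.94e-08), -0.77 ± 0.0699 (adjusted p = 1.69e-06) and -0.97 ± 0.07 (adjusted p = 1.16e-07). Its ratio per 1000 muscle marker counts went from 3.66 ± 0.13 to 2.66 ± 0.0168 in B3, but from 4.31 ± 0.141 to 5.11 ± 0.266 in O1 and from 3.99 ± 0.211 to 5.17 ± 0.50 in O3.

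Cam was not called with age in any strain. Its libraries read 980.3, 939 and 918 CPM and then 963, 943 and 901 CPM in B3, 855, 886 and 914 and then 885, 971 and 954 CPM in O1, and 912, 869.8 and 1020.4 and then 991, 1009 and 988 CPM in O3. The ages overlapped in each strain. The log2 changes were -0.016 ± 0.0572, 0.082 ± 0.0572 and 0.093 ± 0.0572, with 95% intervals of -0.14 to 0.11, -0.041 to 0.20 and -0.03 to 0.22 and adjusted p-values of 0.851, 0.377 and 0.193. Without library 3 of O3 at 1 week the change in O3 was called, at 0.16 (adjusted p = 0.0195).

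**Figure D2:**
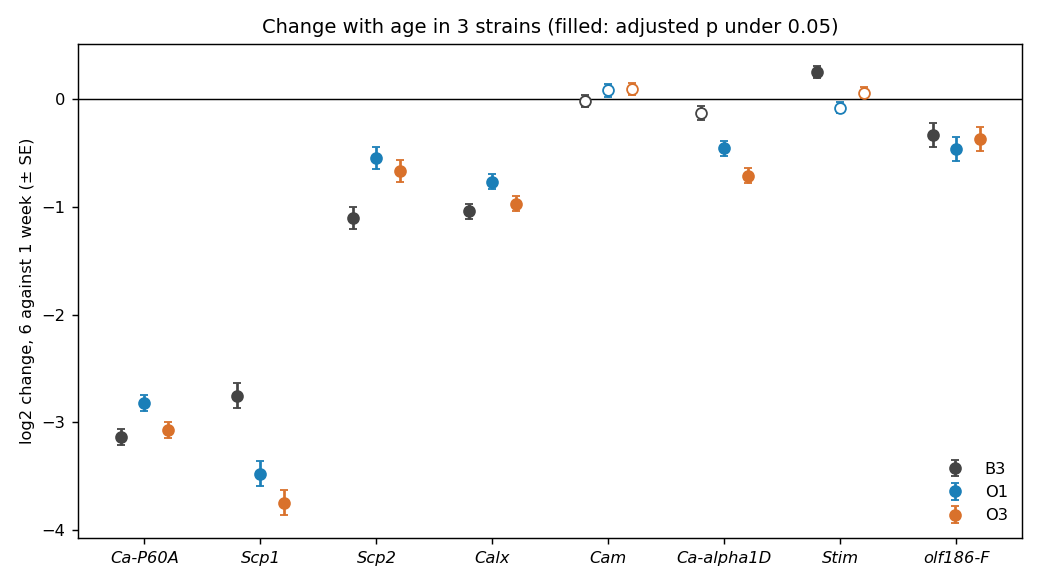
Log2 change from 1 to 6 weeks (vertical axis) of each gene in B3, O1 and O3, with SE bars and 3 libraries per group. Filled points have an adjusted p under 0.05; Ca-P60A and Scp1 lie between -2.75 and -3.75 in all 3 strains, the other 6 genes between -1.10 and 0.25.

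Ca-alpha1D encodes the pore subunit of the L-type voltage-gated calcium channel. Its libraries read 259, 252 and 253 CPM at 1 week and 249, 239 and 211 CPM at 6 weeks in B3. They read 191, 218 and 209 and then 158, 149 and 144 CPM in O1, and 264, 251 and 274 and then 170.4, 162 and 151 CPM in O3. The ages did not overlap in any strain, but the old B3 libraries lay close under the young ones and well above the old libraries of O1 and O3. Changes were -0.13 ± 0.0671 (adjusted p = 0.142) in B3, which was not called, -0.46 ± 0.0673 (adjusted p = 0.000196) in O1 and -0.71 ± 0.0674 (adjusted p = 2.04e-06) in O3.

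Stim, the calcium sensor of the store membrane, was called higher with age in B3, where no other of the 8 genes rose, and was not called in O1 or O3. It read 157, 161 and 164 CPM and then 185, 196 and 192 CPM there, a change of 0.25 ± 0.0525 (adjusted p = 0.00135) with no overlap. In O1 it read 169, 159 and 144 CPM and then 144, 155 and 148 CPM, and in O3 149.8, 151 and 160.4 and then 164, 160.5 and 157 CPM. These groups overlapped, with changes of -0.078 ± 0.0525 (adjusted p = 0.355) and 0.061 ± 0.0524 (adjusted p = 0.351).

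olf186-F encodes Orai, the plasma membrane channel that Stim opens. It read 69.2, 85.5 and 76.1 CPM and then 59, 70.8 and 54 CPM in B3, 109, 112 and 104 and then 86.5, 78.1 and 72 CPM in O1, and 108, 98.3 and 113 and then 83.2, 92 and 72.6 CPM in O3. The ages overlapped in B3 and did not in O1 and O3. Changes were -0.33 ± 0.112 (adjusted p = 0.0291), -0.46 ± 0.112 (adjusted p = 0.00802) and -0.37 ± 0.111 (adjusted p = 0.016). The B3 call was lost with the low-count filter off (adjusted p = 0.0552) and without any of 4 of its 6 libraries (library 2 or 3 at 1 week, library 1 or 3 at 6 weeks), up to an adjusted p of 0.13. The O3 call was lost without library 3 at 6 weeks (adjusted p = 0.0727), and without the testis-rich libraries the changes were -0.47 in O1 and -0.45 in O3, neither called (adjusted p = 0.0701 and 0.0676).

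The strains themselves differed in most of these genes at 6 weeks. O1 and O3 were each called different from B3 in 7 of the 8, with Ca-P60A, Scp2, Calx and olf186-F higher and Scp1, Ca-alpha1D and Stim lower in both. The 4 higher genes stand beside 19.8% of all genes called higher in O1 and 20% in O3, and the 3 lower ones beside 24.5% and 20.2% called lower. The median difference of the 8 genes from B3 was 0.14 in O1 and 0.18 in O3, against 0.029 and 0.026 over all genes. Both comparisons use the same B3 libraries, so their likeness is not independent.

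**Figure D3:**
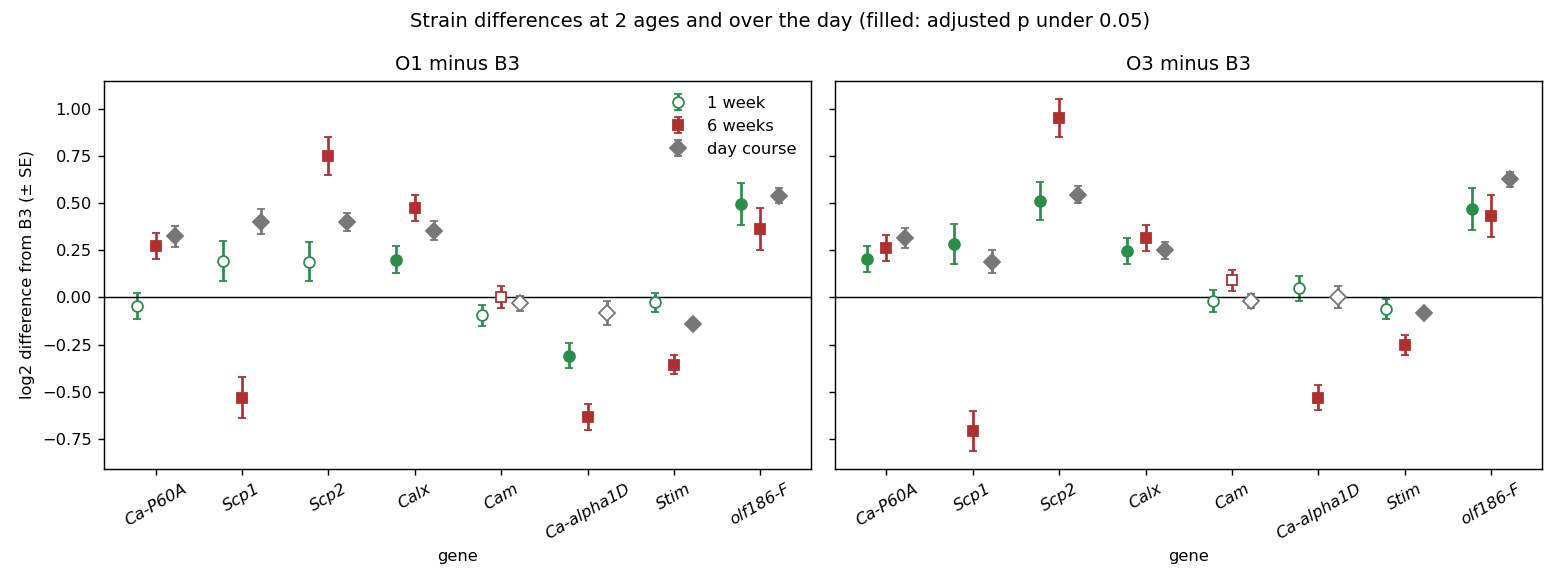
Log2 difference from B3 (vertical axes, with SE) of each gene in O1 and O3 at 1 week, at 6 weeks and over the 4 time points of the day course. Filled points have an adjusted p under 0.05; Scp1 is below 0 at 6 weeks in both strains and above 0 in the day course.

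Among the pump and buffers at 6 weeks, Scp2 was furthest above B3, by 0.75 ± 0.102 (adjusted p = 4.04e-05) in O1 and 0.95 ± 0.102 (adjusted p = 4.21e-06) in O3 on the log2 scale, or 1.68- and 1.94-fold. Scp1 went the other way, at -0.53 ± 0.107 (adjusted p = 0.00106) and -0.71 ± 0.107 (adjusted p = 9.68e-05). Ca-P60A was 1.21- and 1.2-fold higher, at 0.27 ± 0.07 (adjusted p = 0.006) and 0.26 ± 0.07 (adjusted p = 0.00734). Per 1000 muscle marker counts, Scp1 stood at 12.8, 12.3 and 12.3 in B3, O1 and O3 at this age. In the same order, Ca-P60A stood at 34.0, 56.7 and 63.7 and Scp2 at 0.793, 1.85 and 2.41. The Scp1 ratio ranged over 12.0 to 13.6 in B3, 11.2 to 13.4 in O1 and 12.0 to 12.8 in O3, which overlapped. In CPM, the O1 and O3 ranges of Scp1, Ca-P60A and Scp2 at 6 weeks did not overlap B3. The same held in CPM for Calx, Ca-alpha1D, Stim and olf186-F. No share of all genes without overlap stands beside this, so it only describes these libraries. The exchanger and channel genes also differed, with Calx at 0.47 ± 0.0698 (adjusted p = 8.37e-05) and 0.31 ± 0.0697 (adjusted p = 0.00224), Ca-alpha1D at -0.63 ± 0.0674 (adjusted p = 4.38e-06) and -0.53 ± 0.0672 (adjusted p = 1.92e-05), and Stim at -0.36 ± 0.0525 (adjusted p = 8.39e-05) and -0.25 ± 0.0524 (adjusted p = 0.00134). olf186-F was higher by 0.36 ± 0.112 (adjusted p = 0.0169) and 0.43 ± 0.112 (adjusted p = 0.00636). Omission of library 1 or 3 of B3 or of library 1 of O1 at 6 weeks ended the O1 call of olf186-F, up to an adjusted p of 0.0793. At this age, 18 and 17 of 25 muscle markers were called lower in O1 and O3 than in B3 (2 and 3 higher), and 11 and 9 of 13 gut markers were called higher, with sums of 2748 to 3769 CPM in B3, 9413 to 11826 CPM in O1 and 4760 to 10047 CPM in O3. In O1, 8 of 13 testis markers (median 5.03) and 4 of 5 ovary and yolk markers (median 2.40) were also called higher than in B3, and since all 3 O1 libraries of this age carry the testis markers, no value without them can be had. The part of these tissues in the differences was not tested.

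At 1 week fewer differences were called. O1 had Calx and olf186-F higher and Ca-alpha1D lower than B3, beside calls in 10.3% of genes upward and 13.5% downward. O3 had Ca-P60A, Scp1, Scp2, Calx and olf186-F higher, beside 19.3% of genes called higher. The median difference of the 8 genes was 0.082 in O1 and 0.22 in O3, against 0.037 and 0.057 over all genes. olf186-F was furthest above B3 in O1, by 0.50 ± 0.112 (adjusted p = 0.0052), and stood at 0.47 ± 0.112 (adjusted p = 0.00627) in O3. Ca-alpha1D in O1 was -0.31 ± 0.0673 (adjusted p = 0.0042), and its range of 191 to 218 CPM lay below B3. Scp2 in O3 was 0.51 ± 0.101 (adjusted p = 0.00174). Other calls at 1 week were near the threshold, with Calx at 0.20 ± 0.0696 (adjusted p = 0.0496) and 0.25 ± 0.0695 (adjusted p = 0.0159), Ca-P60A in O3 at 0.20 ± 0.0699 (adjusted p = 0.0374) and Scp1 in O3 at 0.29 ± 0.106 (adjusted p = 0.049). The Scp1 call was lost without any single library of the comparison, the Ca-P60A call without 5 of the 6 (library 2 of O3 kept it) and the Calx call in O1 without 5 of the 6 (library 1 of O1 kept it), while that in O3 was lost without library 3 of B3 (adjusted p = 0.0863). Without the testis-rich libraries, which leaves 1 library of O1 or O3 against 3 of B3, 1 of the 8 genes was called in O1 (Calx at 0.066 and olf186-F at 0.50 were not, with adjusted p = 0.658 and 0.0506) and 4 in O3 (Scp1 at 0.37 was not, with adjusted p = 0.134). Fat body and accessory gland markers also moved in O3 at 1 week, with 7 of 7 tested fat body markers lower (4327 to 4837 CPM in sum against 9884 to 12107 CPM in B3) and 7 of 7 tested accessory gland markers higher (121 to 1396 CPM against 2.95 to 47.3 CPM). Of the 25 muscle markers, 11 were called higher in O3 and 1 lower at this age, with a median of 0.21, near the differences of Ca-P60A, Scp1 and Calx. In O1, 4 were higher and 6 lower (median 0.037). The part of these shifts in the differences was not tested.

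Whether the change with age itself differed between strains was tested as an interaction. In O1 against B3, 5 of the 8 genes were called, with Ca-P60A and Scp2 falling less in O1 and Scp1 and Ca-alpha1D falling further, while Stim rose in B3 and was not called in O1. Over all genes 5.98% were called with a more positive and 8.28% with a more negative change in O1. In O3 against B3, 3 genes were called, with Scp2 falling less and Scp1 and Ca-alpha1D falling further, beside 10.1% and 7.59% of all genes. Differences between the log2 changes were -0.72 ± 0.15 (adjusted p = 0.00557) in O1 and -0.99 ± 0.151 (adjusted p = 0.000606) in O3 for Scp1, and -0.33 ± 0.095 (adjusted p = 0.0341) and -0.58 ± 0.0949 (adjusted p = 0.00103) for Ca-alpha1D. For Scp2 they were 0.56 ± 0.143 (adjusted p = 0.0183) and 0.44 ± 0.143 (adjusted p = 0.0475), and for Stim -0.33 ± 0.0743 (adjusted p = 0.00899) and -0.19 ± 0.0742 (adjusted p = 0.0913), the latter not called. Stim in O3 was called with RLE factors (-0.22, adjusted p = 0.0321), with upper-quartile factors (-0.31, adjusted p = 0.00333) and by DESeq2 (-0.22, adjusted p = 0.00498). Ca-P60A had 0.32 ± 0.0989 (adjusted p = 0.0461) in O1 and 0.061 ± 0.0989 (adjusted p = 0.704) in O3, where the 95% interval was -0.15 to 0.27. Calx, at 0.27 ± 0.0984 (adjusted p = 0.0829) in O1, and olf186-F, at -0.13 ± 0.158 in O1 and -0.038 ± 0.158 in O3, were not called. DESeq2 called 6 of the 8 genes in O1 and 4 in O3, with Calx added in O1 (0.28, adjusted p = 0.0396).

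Scp1 in both strains, Ca-alpha1D in O3 and Scp2 and Stim in O1 kept these interaction calls under omission of any 1 library. The O1 call of Ca-P60A was lost in 10 of 12 such omissions (up to an adjusted p of 0.117; library 3 of O1 at 1 week and library 3 at 6 weeks kept it), that of Ca-alpha1D in 8 of 12 (up to 0.0902), and the O3 call of Scp2 in 8 of 12 (up to 0.109). Without the testis-rich libraries, on 1 library at 1 week of O1 or O3, Ca-alpha1D in O1 (adjusted p = 0.19) and Scp2 in O3 (0.351) were not called, while Calx in O1 was, at 0.41 (adjusted p = 0.0228).

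A wider set of 39 calcium genes in 5 lists, also chosen with earlier results known, was read from the same tests. Of these, 19 were called lower and 6 higher with age in B3, 15 and 2 in O1, and 21 and 3 in O3, beside 20% and 21.8% of all genes called lower and higher in B3, 12.4% and 10.4% in O1, and 27.4% and 22.8% in O3. The medians of the 39 were -0.24, -0.19 and -0.37, against -0.028, -0.026 and -0.0019 over all genes. The store genes included jp, the junctophilin that ties the reticulum to the surface membrane, at -0.49 ± 0.0664, -0.60 ± 0.0665 and -0.99 ± 0.0669, and Rya-r44F, the ryanodine receptor that releases calcium from the reticulum, at -0.49 ± 0.0985, -0.75 ± 0.0988 and -1.14 ± 0.0994. The row pncr003:2L, which codes for the sarcolamban peptides known to inhibit SERCA in flies, stood lower at -0.52 ± 0.0849, -0.72 ± 0.0855 and -0.50 ± 0.085, less than Ca-P60A in each strain. Crc, the reticulum buffer calreticulin, stood higher at 0.36 ± 0.0616, 0.19 ± 0.0616 and 0.29 ± 0.0615. Of the 7 store genes, 4 were lower and 2 higher in B3, 3 and 1 in O1, and 4 and 1 in O3.

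Of 9 genes of plasma membrane transport, 7, 3 and 6 were called lower in B3, O1 and O3 and 1, 0 and 0 higher, with PMCA, the surface calcium pump, at -0.36 ± 0.0711, -0.32 ± 0.0711 and -0.43 ± 0.0711. Of 6 other calcium-binding proteins, 5, 3 and 4 fell, among them the EF-hand buffer gene Cbp53E at -1.02 ± 0.0758, -0.85 ± 0.0754 and -0.91 ± 0.0753. Of 13 calmodulin and calcium effector genes, 3, 5 and 6 fell and 2, 1 and 2 rose. CaMKII, the calmodulin-dependent kinase, stood lower at -0.75 ± 0.0842, -0.63 ± 0.0841 and -0.77 ± 0.0841, while CalpB, a calcium-activated protease, stood higher at 0.90 ± 0.0554, 0.20 ± 0.0552 and 0.21 ± 0.055. Of 4 mitochondrial calcium genes 1 was called in each strain, Letm1, at 0.21 ± 0.0558 in B3, -0.47 ± 0.0559 in O1 and -0.38 ± 0.0558 in O3. The difference in its change was called in O1 (-0.68 ± 0.079) and O3 (-0.59 ± 0.0789), as it was for CalpB (-0.70 ± 0.0779 and -0.69 ± 0.0778). In all, the interaction called 6 of the 39 more negative and 1 more positive in O1, and 9 and 3 in O3. Over all genes tested, 8.28% were called more negative and 5.98% more positive in O1, and 7.59% and 10.1% in O3.

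Against B3 at 6 weeks, 18 of the 39 were called lower and 5 higher in O1, and 15 and 9 in O3, and at 1 week 11 and 3 in O1 and 10 and 7 in O3. Over all genes 24.5% were lower and 19.8% higher in O1 and 20.2% and 20% in O3 at 6 weeks, and 13.5% and 10.3% in O1 and 16.7% and 19.3% in O3 at 1 week. jp was lower at both ages, at -0.64 ± 0.0665 and -0.75 ± 0.0666 in O1 and -0.46 ± 0.0664 and -0.96 ± 0.0668 in O3. So was pncr003:2L, at -0.38 ± 0.085 and -0.59 ± 0.0851 in O1 and -0.70 ± 0.0851 and -0.69 ± 0.0851 in O3. These medians and counts describe the lists and were not tested against other gene lists.

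In the strain day course, Ca-P60A read 5963 to 11009 CPM over the 31 libraries. Time of day was called for 1 of the 8 genes in B3 (Ca-P60A), 0 in O1 and 1 in O3 (Cam), where 11.2%, 10.9% and 17% of all 12295 genes tested were called. In O1, Scp2 and Cam had an unadjusted p under 0.05, and DESeq2 also called 0 of the 8. Ca-P60A in B3 read 8691, 8662 and 7719 CPM at ZT0, 6271 and 5963 CPM at ZT6, 7971, 7787 and 7665 CPM at ZT12 and 6309 and 6466 CPM at ZT18. ZT0 and ZT12 were high and ZT6 and ZT18 low, with no overlap between these pairs, an amplitude (highest minus lowest mean) of 0.45 on the log2 scale and an adjusted p of 0.00826. In O1 and O3 its amplitudes were 0.096 and 0.19 (adjusted p = 0.861 and 0.355). The B3 groups at ZT6 and ZT18 held 2 libraries each. Mhc, the muscle myosin heavy chain gene, had the same order in B3, at 6392 to 7154 CPM at ZT0 and 6655 to 6846 CPM at ZT12 against 5442 to 5808 CPM at ZT6 and 5543 to 5787 CPM at ZT18, with an amplitude of 0.29 (adjusted p = 0.137, not called). Of the 25 muscle markers 3 were called for time in B3, and their sum was 39733 to 44437 CPM at ZT6 and ZT18 and 42485 to 46662 CPM at ZT0 and ZT12. Per 1000 counts of these markers, Ca-P60A had 182 to 187 and 167 to 179 counts at ZT0 and ZT12 and 150.1 to 150.8 and 146 to 149.6 counts at ZT6 and ZT18, also without overlap.

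Cam in O3 read 645, 601 and 517 CPM at ZT0, 647 and 652 CPM at ZT6, 682, 643 and 624 CPM at ZT12 and 548, 533 and 561 CPM at ZT18. ZT18 lay below ZT6 and ZT12 with no overlap, while ZT0 spread from below ZT18 up to the level of ZT12. Its amplitude was 0.25 (adjusted p = 0.0317), and the call was lost in 7 of 11 omissions of 1 library, up to an adjusted p of 0.0838. Library 3 of O3 at ZT6 stood apart in Calx (181 and 126 CPM in libraries 1 and 3) and in Ca-alpha1D (211 and 145 CPM). Without library 1 of that group, so that library 3 alone stood for ZT6, Calx and Ca-alpha1D were called for time in O3 (adjusted p = 0.000424 and 0.00383).

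The interaction of time with strain called 0 of the 8 genes in O1 and 0 in O3 by edgeR, beside 1.4% and 1.55% of all genes. Ca-P60A and Cam had an unadjusted p under 0.05 in both (adjusted p = 0.143 and 0.21 in O1, 0.32 and 0.0993 in O3), and DESeq2 called 1 gene in each, Ca-P60A in O1 and Cam in O3. A difference in daily profile between strains was therefore called or not according to the test.

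**Figure D4:**
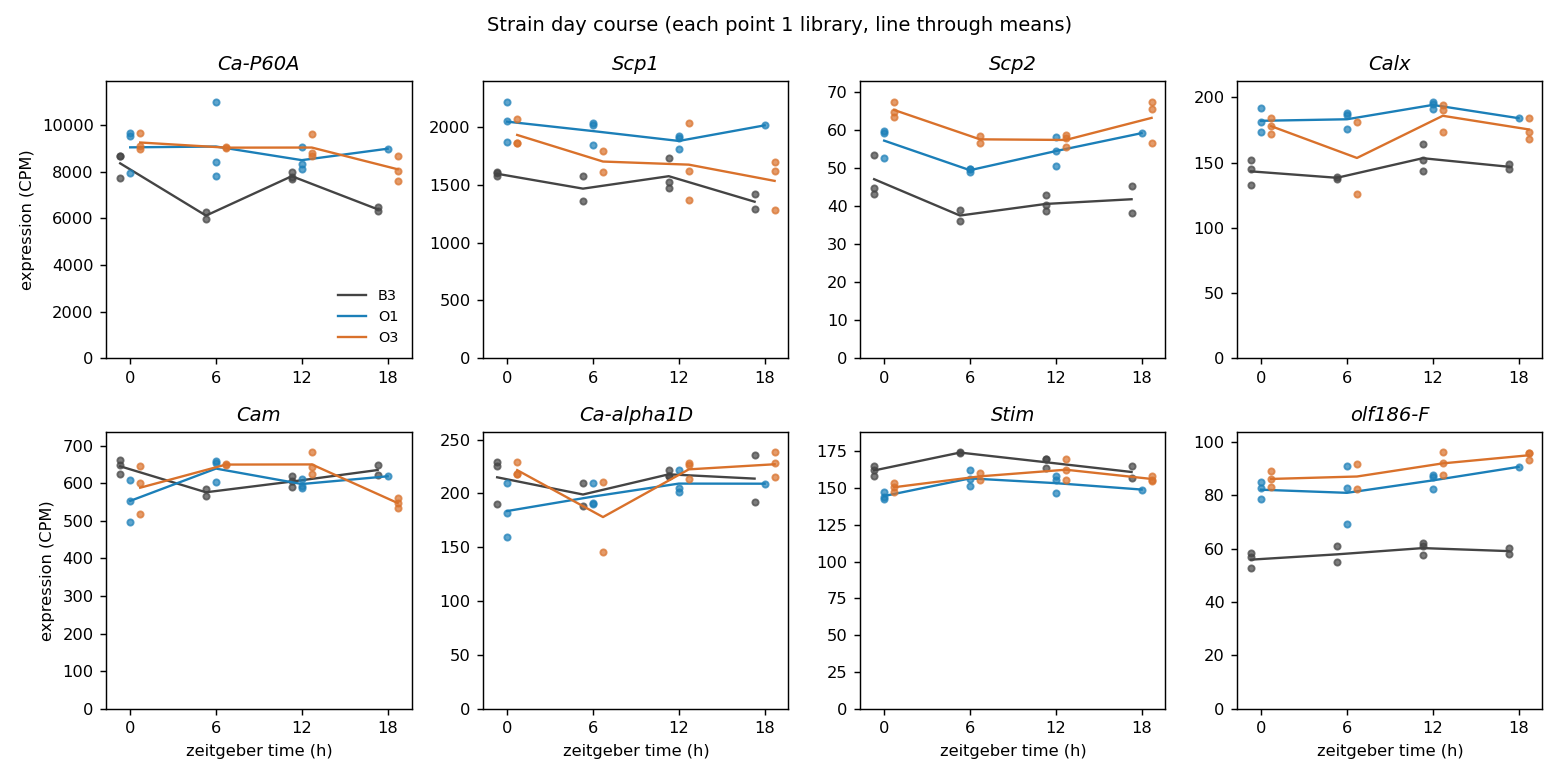
Expression in CPM (vertical axes, from 0) at 4 zeitgeber times (horizontal axes, h) in B3, O1 and O3. Points are single libraries, set slightly apart by strain, and lines join group means; every olf186-F library of O1 and O3 lies above every B3 library.

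Over the day as a whole, both strains differed from B3 in 6 of the 8 genes, with Ca-P60A, Scp1, Scp2, Calx and olf186-F higher and Stim lower. The background was 28.6% of genes called higher and 27.6% lower in O1, and 31.3% and 29.4% in O3, and both comparisons share the B3 libraries. The median difference of the 8 genes was 0.34 in O1 and 0.22 in O3, against 0.015 and 0.034 over all genes. Scp1 and Calx in O1, and Scp2 in O3, did not overlap B3. Among the 8 genes only olf186-F was apart from B3 in both strains. No share of all genes without overlap stands beside this, so it only describes these libraries. olf186-F read 52.7 to 62.1 CPM over the 10 B3 libraries, 69.2 to 91.0 CPM in O1 and 82.5 to 96.2 CPM in O3. The olf186-F differences were 0.54 ± 0.0415 (adjusted p = 1.2e-10) in O1 and 0.63 ± 0.0391 (adjusted p = 2.87e-12) in O3, or 1.45- and 1.54-fold.

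Other signals moved with strain over the day. Fat body markers summed to 6644 to 12895 CPM in B3, 4535 to 7058 CPM in O1 and 4365 to 5656 CPM in O3, with 4 of 8 called lower in O1 and 7 of 8 in O3. Of the 25 muscle markers, 13 were higher and 5 lower in O1 (median 0.14), and 7 and 11 in O3 (median -0.033). Reads outside annotated features took 10.2 to 11.6% in B3, 7.11 to 12.5% in O1 and 12.0 to 16.5% in O3. Alignments that were not unique came to 24.4 to 29.4 per 100 gene counts in B3, 19.8 to 33.8 in O1 and 30.8 to 45.4 in O3. The part of these shifts in the strain differences was not tested.

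Scp1 was higher than B3 over the day, by 0.40 ± 0.0654 (adjusted p = 1.31e-05) in O1 with no overlap and by 0.19 ± 0.0612 (adjusted p = 0.0103) in O3 with overlap, a direction opposite to that at 6 weeks in the age experiment. At 1 week in that experiment its means were 3685 CPM in O1 and 3934 CPM in O3 against 3226 CPM in B3, called in O3 only. The labels give no age for the day-course flies. Scp2 differed by 0.40 ± 0.0459 (adjusted p = 8.45e-08) and 0.55 ± 0.0431 (adjusted p = 1.54e-10), Calx by 0.35 ± 0.0496 (adjusted p = 1.72e-06) and 0.25 ± 0.0464 (adjusted p = 6.61e-05), and Ca-P60A by 0.32 ± 0.0539 (adjusted p = 1.75e-05) and 0.32 ± 0.0505 (adjusted p = 9.88e-06). Stim was lower, at -0.14 ± 0.0242 (adjusted p = 3.09e-05) and -0.083 ± 0.0224 (adjusted p = 0.00261), and the O3 call was lost under upper-quartile scaling (-0.015, adjusted p = 0.603). Cam and Ca-alpha1D were not called, with 95% intervals of -0.11 to 0.051 and -0.21 to 0.048 in O1 and -0.094 to 0.059 and -0.12 to 0.12 in O3. Of the 39 wider calcium genes, 13 were lower and 11 higher in O1 and 12 and 13 in O3, shares near those of all genes given above, with jp at -0.54 ± 0.0359 and -0.65 ± 0.0328 and pncr003:2L at -0.86 ± 0.0757 and -0.88 ± 0.0684.

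In the transgenic day course, expression of timeless from the muscle driver went with small shifts in 4 of the 8 genes. Ca-P60A and Ca-alpha1D were higher and Cam and olf186-F lower in mhc>timeless than in mhc, beside 8.68% of the 12727 genes tested that were higher and 9.75% that were lower. The median of the 8 genes was -0.0060, against 0.0088 over all genes. Ca-P60A read 1972 to 2404 CPM over the 12 mhc libraries and 2148 to 2483 CPM over the 11 mhc>timeless libraries, which overlapped, with a difference of 0.12 ± 0.0311 (adjusted p = 0.0136). olf186-F read 84.7 to 99.6 CPM in mhc and 83.03 to 92.2 CPM in mhc>timeless, a difference of -0.081 ± 0.0209 (adjusted p = 0.0109). Cam differed by -0.13 ± 0.0384 (adjusted p = 0.0299) and Ca-alpha1D by 0.12 ± 0.0384 (adjusted p = 0.0439), also with overlap. Ca-alpha1D was not called in 18 of 23 omissions of 1 library (up to an adjusted p of 0.104), nor without both photoreceptor-rich libraries (adjusted p = 0.0978). Cam was not called without library 3 of mhc at ZT12, library 3 of mhc>timeless at ZT0 or library 1 or 2 of mhc>timeless at ZT6 (adjusted p up to 0.102). Leaving out the first of these, library 3 of mhc>timeless at ZT0 or library 1 of mhc>timeless at ZT6 reduced the count from 4 to 2. Hemocyte markers also differed, with 7 of 9 called higher and 2 lower in mhc>timeless (1395 to 1558 CPM in sum against 1208 to 1429 CPM), and 3 of 25 muscle markers were higher and 6 lower, a part that was not tested.

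**Figure D5:**
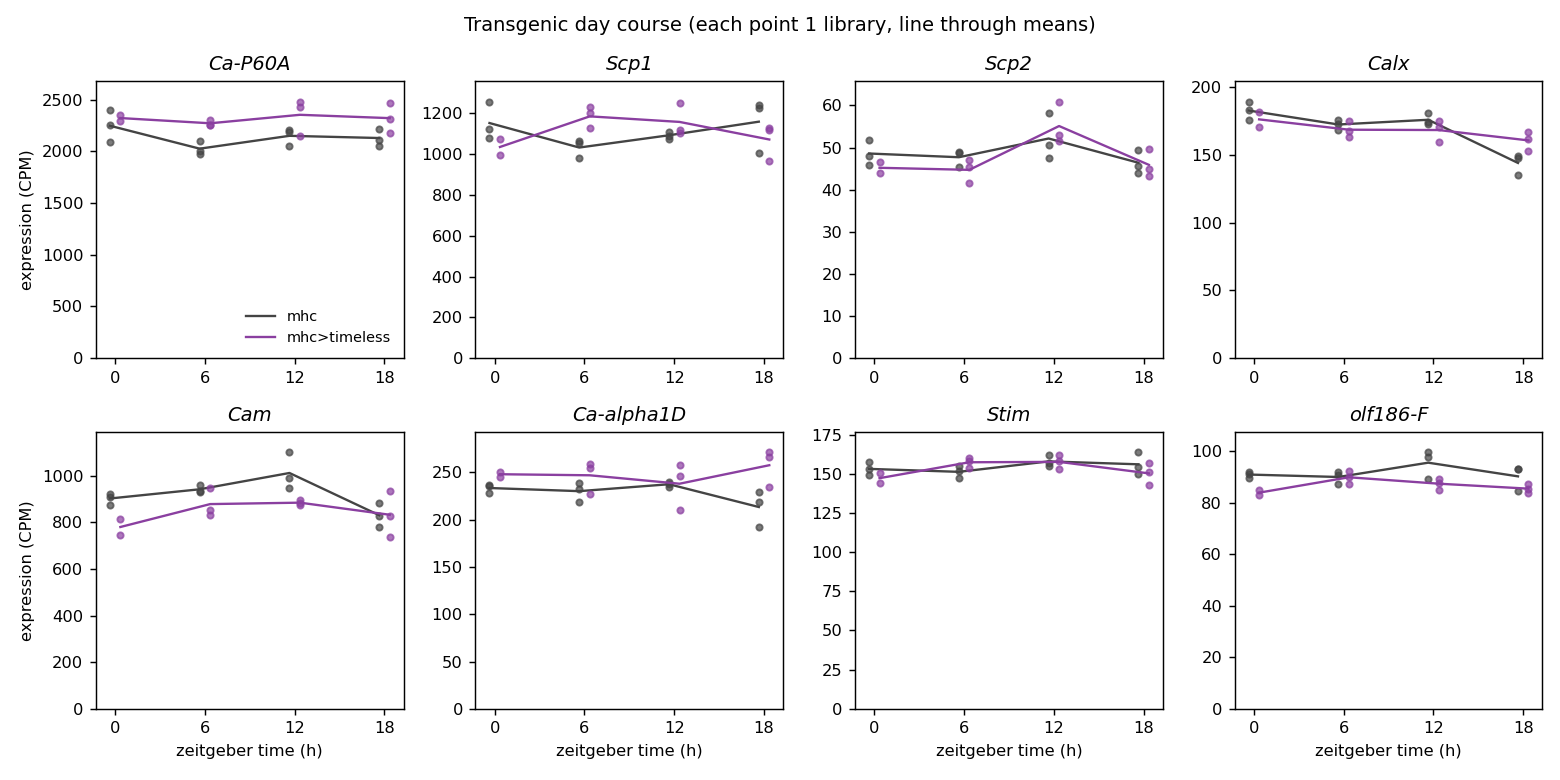
Expression in CPM (vertical axes, from 0) at 4 zeitgeber times (horizontal axes, h) in mhc and mhc>timeless, with 1 point per library and lines through group means. Calx in mhc is lowest at ZT18, at 136 to 149 CPM against 169 to 189 CPM at the other times.

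Time of day was called for Calx and Cam in mhc and for Scp2 in mhc>timeless, beside 22.6% and 19.1% of all genes. Calx in mhc read 183, 176 and 189 CPM at ZT0, 176, 169 and 173 CPM at ZT6, 173, 175 and 181 CPM at ZT12 and 136, 148 and 149 CPM at ZT18. All ZT18 libraries were below all others, with an amplitude of 0.34 (adjusted p = 0.000159), and the ZT18 libraries were also the deepest of the mhc set, a part that was not tested. In mhc>timeless, where all libraries were deep, Calx had an amplitude of 0.13 with the lowest mean again at ZT18 (adjusted p = 0.254). Cam in mhc read 911, 873 and 924 CPM at ZT0, 959, 937 and 931 CPM at ZT6, 989, 947 and 1102 CPM at ZT12 and 884, 829 and 779.7 CPM at ZT18. Library 3 at ZT12, the highest, was the photoreceptor-rich one, and without both such libraries Cam was not called (adjusted p = 0.0645), nor in 10 of 12 omissions of 1 library (up to 0.14). Scp2 in mhc>timeless read 46.5 and 43.9 CPM at ZT0, 41.6, 47.1 and 45.4 CPM at ZT6, 51.4, 60.9 and 53 CPM at ZT12 and 44.8, 43.2 and 49.6 CPM at ZT18. ZT12 was high and did not overlap the other times, with an amplitude of 0.30 (adjusted p = 0.027), and the call was lost without library 3 at ZT0 or library 2 or 3 at ZT12 (up to 0.219).

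Daily profiles were not called different between mhc and mhc>timeless for any of the 8 genes by edgeR (0 calls, beside 0.126% of all genes). Scp1 and Calx had an unadjusted p under 0.05 (adjusted p = 0.215 and 0.166), and DESeq2 called 1 gene, Calx (adjusted p = 0.0412). Of the 39 wider genes, 7 were higher and 4 lower in mhc>timeless, beside the 8.68% and 9.75% of all genes, including sqa, a kinase gene of the myosin light chain kinase family, at 0.16 ± 0.0228, and Frq2, a frequenin calcium sensor, at 0.28 ± 0.04.

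Over the 18 age libraries, likeness to each gene was measured as Pearson's r of log2 CPM over 8617 genes. All genes share the same age and strain groups, so these values are a description. The gene nearest to Ca-P60A was CG9297 (r = 0.997), and the glycolytic gene Gapdh1 had an r of 0.995. Nearest to Scp1 were NnaD (0.997) and the thick filament gene Prm, paramyosin (0.994). Calx was nearest to CG9399 (0.986), with the glycogen phosphorylase gene GlyP at 0.985, and Scp2 to CG11474 (0.967), with the aconitase gene Acon at 0.963. Ca-alpha1D was nearest to Cpr47Ee (0.943) and then to bt, the projectin gene (0.942), Stim to skpA (0.950) and olf186-F to CG12079 (0.942). Cam had no gene above 0.778 (Ptr).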

How the data were processed

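RNA from skeletal muscle of 72 fly samples had been extracted with Trizol and made into stranded mRNA libraries, per the labels' protocols. The authors deposited raw read counts per gene for each library, and the submitters' processing notes name STAR, BWA, HTSeq and the dm3 genome build without versions or roles. The strand setting of the counting was not given in the sources used here. Neither library sizes nor tests used the 5 HTSeq summary lines.

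Each experiment was fitted alone in edgeR 4.0.16 (R 4.3.3, limma 3.58.1), with a mean per group, TMM factors (0.891 to 1.09 over all libraries), the filterByExpr filter by group and quasi-likelihood F-tests, whose p-values were adjusted by Benjamini-Hochberg across the whole table. This gave 12445, 12295 and 12727 genes with 12, 19 and 15 residual degrees of freedom in the age, strain day and transgenic day experiments. The adjusted p-values in the report come from these tests unless another tool is named, and a call is an adjusted p under 0.05. Time of day, and time with strain or genotype, were joint tests over the 4 time points. CPM values are counts-per-million of the effective library total (total times TMM factor), and errors of CPM are SDs over libraries. The shallowest library held 15.5 M (mega) counts, and the lowest count of any of the 8 genes in a library was 738.

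The 8 genes, the wider lists of 39 calcium genes and the marker lists were chosen with earlier results of these data known. Named genes were the 8, up to 3 called members with the smallest p in each wider list and comparison, and the 3 genes most like each of the 8 over the age libraries. A gene that the rule names is not reported here. Exon lengths, strands and overlaps came from the BDGP6 annotation, in which 15369 of 15682 gene rows were matched. Alternatives were RLE and upper-quartile factors, DESeq2 1.42.0, no low-count filter, the replicate number as a block and omission of each library. Removal of the testis-rich or the photoreceptor-rich libraries was added after seeing the data. No pair of libraries of a group agreed within sampling noise (chi-square per degree of freedom 12.1 to 181 over 67 pairs). The fits were tested on simulated data with known changes.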

Additional observations from a re-analysis of the deposited data

Results flagged for a closer look

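The change with age differed between strains by an interaction test for 5 of the 8 genes in O1 and 3 in O3, each against B3. Over all genes, 5.98% were called with a more positive and 8.28% with a more negative change in O1, and 10.1% and 7.59% in O3. Omission of any single library left fewer than 5 in O1. Ca-P60A fell less in O1 than in B3, with a difference of 0.32 between the log2 changes. Scp1 fell further, with differences of -0.72 in O1 and -0.99 in O3. Per 1000 muscle marker counts, Scp1 went from 57.8 to 12.8 in B3, from 67.5 to 12.3 in O1 and from 64.9 to 12.3 in O3. On the same scale Ca-P60A went from 200.2 to 34.0 in B3, from 199 to 56.7 in O1 and from 212 to 63.7 in O3. The Scp2 ratio went from 1.14 to 0.793 in B3, but from 1.34 to 1.85 in O1 and from 1.5 to 2.41 in O3. The part of the muscle markers in the differences between strains was not tested. Scp2 fell less, with differences of 0.56 in O1 and 0.44 in O3. Ca-alpha1D fell further, with differences of -0.33 in O1 and -0.58 in O3. Stim rose in B3, and its change in O1 differed from that by -0.33. Stim in O3 (-0.19) was not called by edgeR with TMM factors but was with RLE or upper-quartile factors and by DESeq2, which also called Calx in O1. The O1 differences of Ca-P60A and Ca-alpha1D and the O3 difference of Scp2 lost their calls without single libraries, as given in the report, and both sets of differences share the B3 libraries.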

How the results depend on the processing

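No value changed sign past the threshold under any alternative run. Of 2840 recomputed values of the 8 genes, 2682 kept their side of the threshold, with any change of sign between uncalled values and within 1 SE. Joint tests, which have no direction, were compared on the adjusted p alone. Another 119 lost the call and 20 gained it. The remaining 19 changed sign by more than 1 SE, with no call in either run. Counts of called genes among the 8 changed by over 1.5 times in O3 against B3 at 1 week, to 3 with no low-count filter and to 3 with the replicate block, and in O1 against B3 at 1 week, to 1 with the testis-rich libraries removed. Time of day in mhc went from 2 to 1 with upper-quartile factors, with no filter and with the photoreceptor-rich libraries removed. DESeq2 called 2 genes for time of day in B3 and 1 for time by strain in O1, 1 in O3 and 1 for time by genotype. With 1 library left out at a time, counts ranged from 5 to 6 for age in B3, 6 to 6 in O1 and 5 to 7 in O3; from 2 to 4 in O1 and 2 to 4 in O3 against B3 at 1 week; from 6 to 7 and 7 to 7 at 6 weeks; from 3 to 4 and 2 to 3 for age by strain in O1 and O3; from 1 to 2, 0 to 1 and 0 to 3 for time of day in B3, O1 and O3; from 0 to 1 for time by strain in O1 and 0 to 1 in O3; from 1 to 2 and 0 to 1 for time of day in mhc and mhc>timeless; from 2 to 4 for genotype and 0 to 0 for time by genotype. Over the day both strains kept 6. Of 69 calls of single genes, 54 were kept under every omission. The cause of these changes was not tested. Omission of the lone O1 library at ZT18 gave no value for tests that need it.

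Replicate numbers were not stated to pair libraries, and same-numbered libraries correlated in their deviations from the group means between -0.783 and 0.817 (17 of 45 pairs over 0.1 in the age experiment). In 6 of 18 age libraries the best match was the own number. As a block, the numbers ended the calls of Calx in O1 (adjusted p = 0.0643), of Ca-P60A and Scp1 in O3 at 1 week (0.055 and 0.0683) and of Ca-P60A for age by strain in O1 (0.0663). Upper-quartile factors shifted the median gene by -0.12 for age by strain in O3 (log2), and ended the calls of Ca-P60A in O1 (0.109) and Scp2 in O3 (0.128). RLE factors also ended that of Scp2 in O3 (0.061). The 8 genes had at least 738 counts in every library.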
